A study of Mus musculus with 42 samples.

Results

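Fibroblasts sorted from mouse lung and kept on a 0.2 kPa gel for 5 days had a lower ATAC signal at nearly every promoter region listed as different from freshly sorted cells. The regions described here are those promoter regions: regions listed as lower on the 0.2 kPa gel than in sham cells, with a midpoint within 1000 bases of a RefSeq transcription start site of mm10, that also overlap a region listed as lower on the 32 kPa gel. There were 14482 such regions among the 47475 of the 0.2 kPa list, and 12031 genes had the start site nearest to at least 1 of them. They were chosen by the deposited group concentrations on both gels and in sham, so their loss of signal is a description and is not tested again.

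ATAC-seq counts the DNA fragments that a transposase cuts out of chromatin, so a strong signal marks DNA that is accessible, and active promoters usually carry a peak over the nucleosome-depleted stretch at the start site. Many mammalian promoters lie in CpG islands, stretches that keep the CpG dinucleotide which the rest of the genome has largely lost. Island promoters serve mostly housekeeping and broadly used genes, and genes of differentiated cells more often start at CpG-poor promoters. An accessible promoter permits transcription but does not fix its rate, so RNA from the same groups was set beside the ATAC signal gene by gene.

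The gel study used CD1 mice with the Col1a1-GFP reporter, whose GFP marks cells that use the type I collagen promoter. GFP+ lung mesenchyme negative for CD45, EpCAM and CD31 was either taken directly after sorting (the sham group) or grown for 5 days in serum-containing medium on collagen I coated PDMS of 0.2 kPa (soft) or 32 kPa (stiff), with 3 RNA-seq and 3 ATAC-seq samples in each of the 3 groups. Sham and gel samples thus differ in culture as a whole, and both gels share the same sham samples. A second set used Col1a2 lineage-traced lung mesenchyme of C57BL/6 mice, with 4 RNA-seq and 4 ATAC-seq samples each from sham mice and from mice at day 14 and day 56 after bleomycin, which damages the alveoli and is followed by scarring. The labels number the samples but do not say whether each came from a separate mouse or culture, so p-values measure the spread between these samples. In bulk samples such as these, fewer cells of a type and less RNA or signal per cell cannot be told apart.

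The RNA tables held 34313376 to 67721210 reads per library in CD1 and 14247544 to 51180598 in C57BL/6. RNA levels are given as CPM, the reads of a gene scaled by the library's total. The sham libraries carried the collagen genes that define the sort, with Col1a1 at 5549, 5948 and 8935 CPM. Traces of other cells were present: a list of 22 leukocyte markers summed to 134.1 to 271.7 CPM in sham, 17.79 to 26.14 CPM on 0.2 kPa and 14.97 to 15.24 CPM on 32 kPa, and 18 epithelial markers to 151.7 to 393.5, 1.62 to 2.34 and 1.49 to 3.13 CPM. Sham replicate 2 stood apart, with 856.6 CPM over 12 smooth muscle markers against 3656 and 4188 CPM in the other sham libraries and with the highest leukocyte and epithelial sums. On 32 kPa, replicate 3 kept more RNA of several sham-rich genes than replicates 1 and 2, as the values of Inmt, Clec3b and C3 given later show.

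The promoters of 7 genes introduce the range of sequences among these regions: the 3 largest RNA falls on the gels (Inmt, Clec3b and Scara5), the 2 largest rises (Steap1 and Lrr1) and the 2 genes with the highest sham RNA that passed the test on neither gel (Bgn and Lars2). Each run is the 250 bases before the start site, 5′ to 3′ on the strand of the gene, with CpG dinucleotides in capitals, read from the mm10 genome (GRCm38.p6) at the RefSeq start.
Inmt: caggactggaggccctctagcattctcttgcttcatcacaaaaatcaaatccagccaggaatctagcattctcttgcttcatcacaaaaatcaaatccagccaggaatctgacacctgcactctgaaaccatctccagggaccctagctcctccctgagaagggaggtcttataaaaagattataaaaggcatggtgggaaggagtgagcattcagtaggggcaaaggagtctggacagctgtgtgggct
Clec3b: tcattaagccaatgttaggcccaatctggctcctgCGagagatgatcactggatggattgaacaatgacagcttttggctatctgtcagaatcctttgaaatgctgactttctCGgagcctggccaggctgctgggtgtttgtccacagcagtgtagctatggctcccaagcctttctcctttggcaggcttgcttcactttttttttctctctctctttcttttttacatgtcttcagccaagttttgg
Scara5: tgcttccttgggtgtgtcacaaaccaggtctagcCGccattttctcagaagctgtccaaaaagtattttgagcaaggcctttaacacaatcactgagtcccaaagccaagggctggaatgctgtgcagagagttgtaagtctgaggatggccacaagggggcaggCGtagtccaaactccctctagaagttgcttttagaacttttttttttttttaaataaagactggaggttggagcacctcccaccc
Steap1: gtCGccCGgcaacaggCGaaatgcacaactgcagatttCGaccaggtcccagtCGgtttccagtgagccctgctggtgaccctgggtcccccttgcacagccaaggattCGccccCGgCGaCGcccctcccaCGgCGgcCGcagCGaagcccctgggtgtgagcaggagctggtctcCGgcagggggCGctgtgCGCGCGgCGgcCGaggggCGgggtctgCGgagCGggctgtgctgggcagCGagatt
Lrr1: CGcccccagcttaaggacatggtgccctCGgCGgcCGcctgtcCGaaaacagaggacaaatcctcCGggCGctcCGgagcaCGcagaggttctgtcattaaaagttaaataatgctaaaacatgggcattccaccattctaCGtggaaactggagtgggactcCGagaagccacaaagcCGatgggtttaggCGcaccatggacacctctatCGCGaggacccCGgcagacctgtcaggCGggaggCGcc
Bgn: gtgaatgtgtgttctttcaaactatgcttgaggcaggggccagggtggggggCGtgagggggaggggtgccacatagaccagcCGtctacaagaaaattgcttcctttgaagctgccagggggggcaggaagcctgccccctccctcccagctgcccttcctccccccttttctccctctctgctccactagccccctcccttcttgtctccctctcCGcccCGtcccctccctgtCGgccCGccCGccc
Lars2: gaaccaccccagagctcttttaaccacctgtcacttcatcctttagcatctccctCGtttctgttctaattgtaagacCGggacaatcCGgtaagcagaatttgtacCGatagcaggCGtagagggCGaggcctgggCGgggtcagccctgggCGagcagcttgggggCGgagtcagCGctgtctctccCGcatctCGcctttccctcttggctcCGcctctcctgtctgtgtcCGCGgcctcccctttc

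These runs lie at chr6:55174991-55175240 (minus strand), chr9:123150696-123150945 (plus), chr14:65666153-65666402 (plus), chr5:5749318-5749567 (minus), chr12:69168564-69168813 (plus), chrX:73483351-73483600 (plus) and chr9:123366677-123366926 (plus), and no other RefSeq transcript covers them. The Inmt run holds 0 CpG, and those of Clec3b and Scara5 hold 2 each. The run of Steap1 holds 24 CpG and that of Lrr1 18. Bgn has 7 and Lars2 has 15. The letters TATAAA, on either strand, occur 2 times before Inmt and in none of the other 6 runs. All 7 were chosen among promoters with lower ATAC signal on both gels, and by RNA that fell, rose or did not pass the test.

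Among the regions of the 0.2 kPa list with a midpoint within 1000 bases of a start site, 14665 were lower than sham and 103 were higher, so 99.3% were lost, against 82.81% of the other listed regions. Of the lost promoter regions on 0.2 kPa, 98.75% also overlapped a region lost on 32 kPa. The median change on 0.2 kPa was -2.73 log2 units, with 90% of regions between -3.57 and -1.44. On 32 kPa it was -2.27, with 90% between -3.14 and -0.98. The 0.2 kPa list was cut at a fold of 1 log2 unit and the 32 kPa list was not. For the other 25913 regions lost on both gels the medians were -2.24 and -1.97, with 90% between -3.65 and -1.23 and between -3.75 and -0.77. The deposited log2 concentration of the lost promoters had a median of 8.84 in sham and 6.16 on 0.2 kPa. Scaled to region length, the median fell from 9.76 to 7.09 per kb on the log2 scale at promoters and from 8.40 to 6.28 at the other lost regions, so the promoters stayed above the other regions on the gel.

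**Figure D1:**
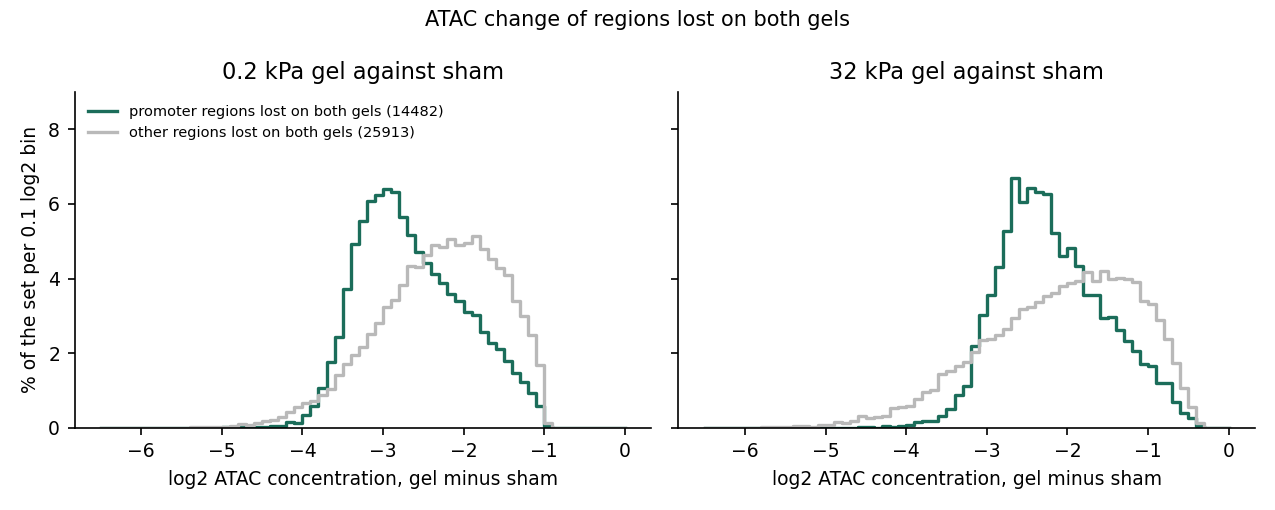
Change in deposited ATAC concentration (log2, gel minus sham, x axis) against the percentage of regions in each 0.1 log2 bin (y axis), for promoter regions lost on both gels (green) and other regions lost on both gels (grey), on 0.2 kPa (left) and 32 kPa (right). The promoter curves peak at deeper losses than the grey curves, with medians of -2.73 and -2.27.

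Most regions sat on the start site itself: 79.59% covered it, and 74.55% had a midpoint within 200 bases. The width had a median of 552 bases, against 280 for the other lost regions. The nearest start belonged to a messenger RNA for 13506 regions and to a noncoding RNA for 976, and 2160 regions had start sites of at least 2 genes in reach. Each region was given only to the gene of its nearest start. A further gene in reach thus counts below as without a lost promoter, unless another lost region was nearest to it. The loss was deepest where the sham signal was highest (Spearman correlation -0.74 over 14482 regions); a group's sham concentration enters both measures. The distance limit divides similar regions: the last region inside lay 998 bases from the start of Pdk2 and changed by -2.39, and the first outside lay 1001 bases from that of Slc2a4rg-ps and changed by -2.09. The smallest loss among the members on 32 kPa was -0.34, at Neil3, and 759 regions had lost less than 1 log2 unit on 32 kPa. The share of reads inside regions in each ATAC library is not in the lists used here, so a weaker signal over background in the gel libraries and lower accessibility of the promoters cannot be told apart.

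Several genes had more than 1 lost promoter region: 2079 genes had 2 or more, and Plec, which encodes the cytoskeletal linker plectin, had 9. Dlg3, a scaffold protein of cell junctions, and Ltbp1, which binds latent TGF-beta in the matrix, had 6 each, as did Ubtf. Plec RNA was at 125.9, 140.0 and 163.9 CPM in sham, 407.6, 497.2 and 619.1 CPM on 0.2 kPa and 708.9, 1020 and 461.7 CPM on 32 kPa, so every gel library lay above every sham library. That rise was 1.61 ± 0.26 log2 units (SE, n = 3 per group) on 0.2 kPa with an adjusted p of 0.000238 in limma, while the region nearest to a Plec start had lost 2.22. Dlg3 and Ltbp1 RNA fell by 0.65 ± 0.14 and 0.94 ± 0.15 on 0.2 kPa (adjusted p = 0.00187 and 0.000234).

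**Figure D2:**
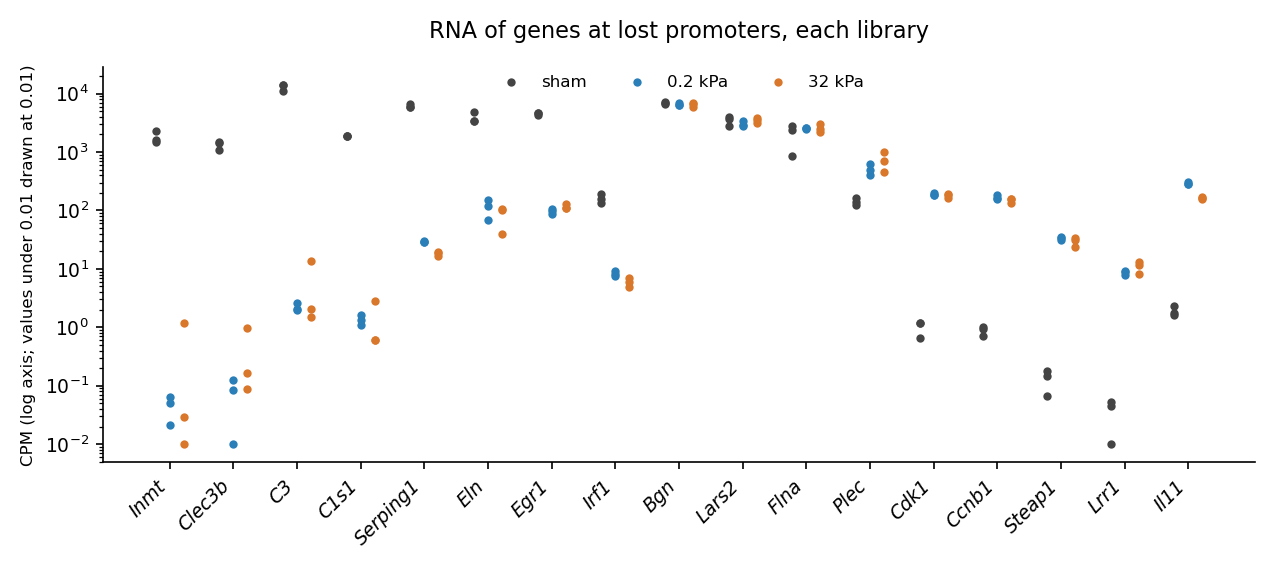
RNA level (CPM, log axis) of 17 genes at lost promoters in each CD1 library, 1 point per library: sham (dark), 0.2 kPa (blue) and 32 kPa (orange). Sham points lie above both gels for Inmt to Irf1, overlap them for Bgn, Lars2 and Flna, and lie below them for Plec to Il11.

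RNA moved in both directions at these promoters. Of the 12031 genes, 11728 were found in the CD1 RNA table and 11531 passed the filter on low values. On 0.2 kPa, 4618 of the 11531 (40.05%) had lower RNA than sham and 4206 (36.48%) had higher RNA, by limma at an adjusted p under 0.05, where 39.2% and 31.9% of all 18480 genes tested were called lower and higher. On 32 kPa the counts were 4754 (41.23%) and 4295 (37.25%), beside 41.0% and 32.4% of all genes tested. The share of genes with lower RNA was thus close to the background on both gels. The median RNA change was -0.09 on 0.2 kPa and -0.10 on 32 kPa, beside -0.22 and -0.26 over all genes tested; with scaling by total reads alone these medians were 0.10 and 0.03 beside -0.04 and -0.11, so their sign depends on the scaling. No gene tested changed in opposite directions on the 2 gels, which share their sham samples; 4401 of the genes at lost promoters were lower on both and 4047 higher on both.

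Genes at the few gained promoters form a contrast. Of 55 tested genes with a gained and no lost promoter region, 37 had higher RNA on 0.2 kPa and 5 lower, with a median of 2.31, and on 32 kPa 38 were higher and 5 lower. A further 2181 tested genes had no lost promoter but were nearest to another region lost on both gels. Of those, 1037 (47.55%) had lower RNA on 0.2 kPa and 412 (18.89%) higher, with a median of -1.15. Among the lost promoters, the size of the ATAC loss followed the RNA change weakly at most, with a Spearman correlation of -0.04 on 0.2 kPa and 0.04 on 32 kPa over 11531 genes; ATAC and RNA of a gel came from separate libraries. Tested genes were also ranked by the loss on 0.2 kPa of the lost region nearest to their start and divided into 5 groups of equal size. From the group with the deepest losses to that with the shallowest, the share of tested genes with lower RNA was 43.30%, 35.30%, 37.08%, 40.55% and 44.02%, and the share with higher RNA 33.68%, 41.76%, 39.55%, 35.95% and 31.44%. The share with lower RNA was thus greatest in the groups at both ends.

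**Figure D3:**
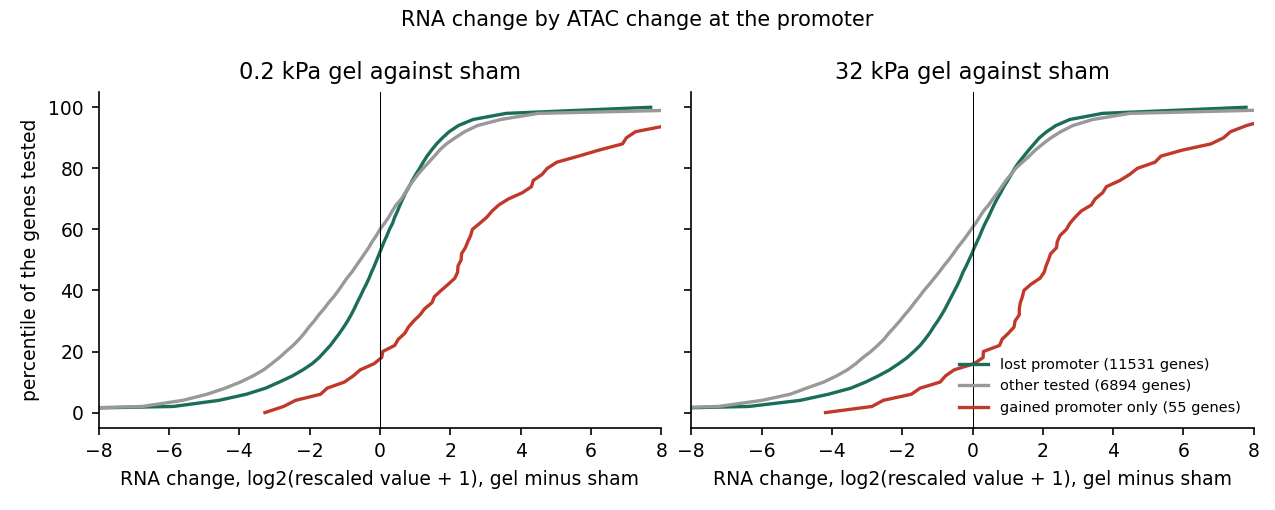
RNA change (log2 of rescaled value + 1, gel minus sham, x axis) at each percentile of the genes tested (y axis), for genes at lost promoters (green, 11531), at gained promoters only (red, 55) and all others (grey), on 0.2 kPa (left) and 32 kPa (right). The green curve crosses 0 near its middle (median -0.09 on 0.2 kPa), and the red curve lies to the right (median 2.31).

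A lost promoter was more common the higher a gene's RNA in fresh cells. Only a promoter with ATAC signal in sham can be listed as lost, and promoters with signal in sham but no loss were not compared. Levels were compared between genes as mean sham CPM per kb of exon. The median was 7.14 CPM per kb for genes at lost promoters and 0.253 for the other genes tested. In 5 groups of equal size ranked by this level, the share with a lost promoter went from 19.86% in the lowest through 53.27%, 79.11% and 86.76% to 90.01% in the highest. From the lowest group to the highest, 25.86%, 41.30%, 40.12%, 39.23% and 43.17% of genes at lost promoters were lower on 0.2 kPa, and 25.57%, 32.08%, 36.51%, 38.51% and 39.49% were higher, so the share with higher RNA was larger in each group than in the one below it. Among genes without a lost promoter, 29.90%, 54.21% (of 1638), 45.77%, 43.53% and 41.71% (of 350) were lower, in the same order. In every group but the highest, this share was greater than at lost promoters. The shares with higher RNA were 20.86%, 17.03%, 30.33%, 37.07% and 41.14%, so they also rose from the second group up.

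The lost promoters were rich in CpG beside start sites as a whole. The other start sites were not chosen for ATAC signal in sham, which a lost promoter needs. The other genes tested also had less RNA in sham. This comparison was matched neither for sham signal nor for sham RNA level. CpG content was measured in windows from 250 bases before to 49 after each start. The CpG ratio is the number of CpG found over the number expected from the C and G content. The median ratio was 0.78 at the 12730 start sites nearest to lost promoter regions, 0.51 over all 31598 start sites, 0.28 at the 18868 other start sites and 0.24 at 90 start sites nearest to gained regions only. A GC box (GGGCGG on either strand) was found in 68.92% of the windows at lost promoters, 43.21% of all windows and 15.56% of those at gained promoters. Matches to the TATA box (TATAAA) were in 6.27%, 12.34% and 24.44%, and matches to the AP-1 motif (TGANTCA) in 4.28%, 7.21% and 24.44%. CpG-rich promoters lost more signal (Spearman correlation of ATAC change with ratio -0.33 over 14481 regions). Regions were ranked by loss on 0.2 kPa and divided into 5 groups of equal size. The median ratio was 0.86 in the deepest group (-4.93 to -3.22) and 0.64 in the shallowest (-2.03 to -1.0). The deepest group also had the higher sham signal and the wider regions, with a median width of 731 bases against 295, and these were not separated from CpG content.

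RNA followed CpG content in the opposite sense. Genes whose lost promoter had a ratio under 0.3 had lost the least ATAC signal on 0.2 kPa, with a median of -2.21, yet 432 of 624 (69.23%) had lower RNA and 79 (12.66%) higher, with a median of -1.87. At a ratio of 0.9 and over the median ATAC loss was -3.04, and 1051 of 3271 genes (32.13%) had lower and 1451 (44.36%) higher RNA, with a median of 0.19. Classes between 0.3 and 0.9 lay between these values, as the plot by CpG class shows.

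This order was not limited to lost promoters. When each gene was given the median ratio of all its start sites, 68.15% of 675 genes at lost promoters with a ratio under 0.3 were lower on 0.2 kPa, and so were 46.48% of 2442 genes without one. At 0.9 and over the shares were 30.42% of 2903 and 25.20% of 611. In the highest of the 5 groups of sham level, the lowest class held 82.58% lower of 178 genes at lost promoters and 77.22% of 79 others, and the highest class 30.97% of 901 and 21.11% of 90. On 32 kPa, 68.44% of the low-CpG genes at lost promoters and 32.00% of the CpG-rich ones were lower.

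**Figure D4:**
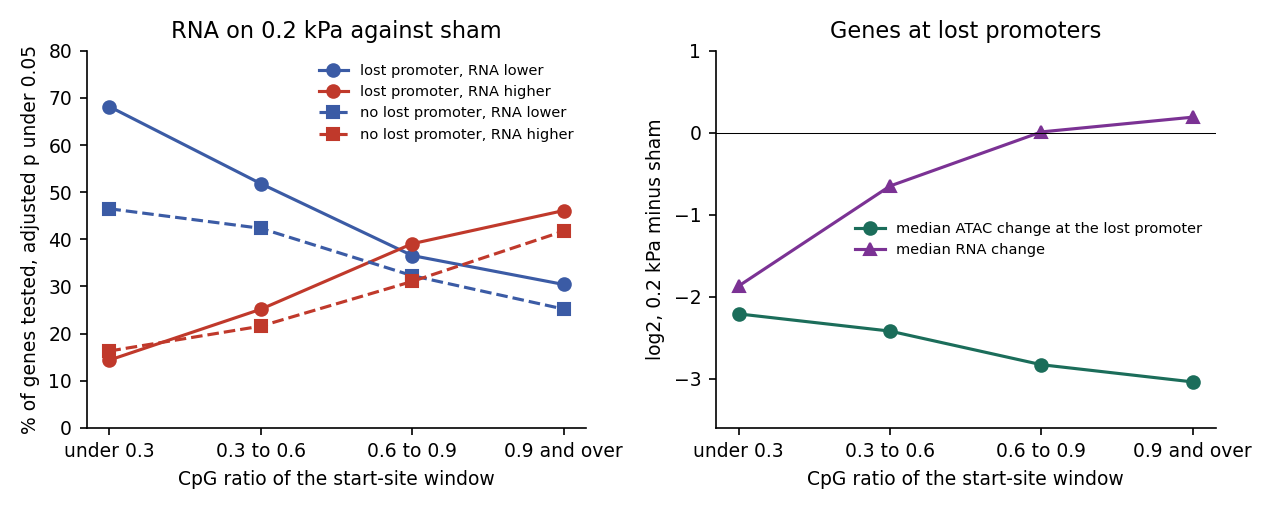
Left, percentage of genes tested with lower (blue) or higher (red) RNA on 0.2 kPa by the median CpG ratio of the gene's start sites, for genes with (circles) and without (squares) a lost promoter. Right, median ATAC change (circles) and median RNA change (triangles), log2, by the CpG ratio at the lost promoter: ATAC goes from -2.21 to -3.04 as RNA goes from -1.87 to 0.19.

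The 10 largest falls at lost promoters took in 4 genes of the adventitial fibroblast list, 1 each of the alveolar and peribronchial lists and 3 complement genes, of which C3 is also an adventitial gene. Slco2b1 and Galnt15 stood on no list. Inmt, an amine methyltransferase typical of alveolar fibroblasts, was at 1469, 2250 and 1587 CPM in sham, at 0.0216, 0.0640 and 0.0508 CPM on 0.2 kPa and at 0.0291, 0 and 1.18 CPM on 32 kPa. Every gel library lay far below sham, with 332628 reads in sham against 6 on 0.2 kPa and 80 on 32 kPa, nearly all in replicate 3. The change on 0.2 kPa was -14.91 ± 1.12 log2 units (adjusted p = 5.38e-07), and its promoter region, chr6:55174589-55175136 over the start site, changed from 7.79 to 4.53. Clec3b, which encodes tetranectin, a marker of adventitial fibroblasts, went from 1087, 1513 and 1445 CPM to 0.0862, 0 and 0.127 CPM on 0.2 kPa and 0.0874, 0.165 and 0.958 CPM on 32 kPa. RNA on 0.2 kPa fell by 14.39 ± 0.81 (adjusted p = 5.15e-08), and its region changed by -4.14. Scara5, a scavenger receptor for ferritin, averaged 1483 ± 55.1 CPM in sham and 0.152 ± 0.0249 on 0.2 kPa (SD, n = 3), and its region changed by -2.23. Pi16, a marker of adventitial fibroblasts, had a shallow region change of -1.41 and an RNA change of -10.89 ± 0.38.

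Some genes fell to 0 reads. Slco2b1, an organic anion transporter, was at 103.4, 108.1 and 103.5 CPM in sham and had 0 reads in all 3 libraries on 0.2 kPa, at least 4646-fold lower against a floor of 3 reads over the group. On 32 kPa it had 3 reads, all in replicate 3. Actc1, cardiac alpha-actin, was at 91.98, 21.41 and 120.0 CPM in sham, lowest in replicate 2, and at 0 reads on 0.2 kPa, at least 3335-fold lower. Galnt15, which adds sugars to secreted proteins, went from 33806 reads in sham to 3 on 0.2 kPa and 15 on 32 kPa.

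Complement genes belonged to the same range. C3, the central complement protein, was at 13790, 10960 and 13850 CPM in sham, 2.63, 1.99 and 2.08 CPM on 0.2 kPa and 2.10, 1.49 and 13.39 CPM on 32 kPa, where replicate 3 was highest. C1s1, a protease of the first complement component, went from 1880, 1880 and 1847 CPM to 1.34, 1.62 and 1.09 CPM on 0.2 kPa, and its region changed by -4.13. Serping1, the inhibitor of that component, went from 5912, 6635 and 5890 CPM to 28.52, 28.84 and 29.52 CPM, with a region change of -4.62. C4b changed by -11.79 ± 0.53 with a region change of -2.55. All 8 complement genes of the list at lost promoters were lower on both gels. On 0.2 kPa their median RNA change was -7.92 and their median ATAC change -2.54, with a median CpG ratio of 0.20. The 6 listed genes tested without a lost promoter were lower on 0.2 kPa as well.

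The 5 largest rises were ranked among genes at lost promoters only, and 2 of them, Cdk1 and Ccnb1, stood on the cell cycle list. On 0.2 kPa the highest change was 7.70 at lost promoters. It was 11.94 at gained promoters only and 11.98 among the remaining genes tested. Steap1, a membrane protein of the STEAP family, was at 0.176, 0.148 and 0.0655 CPM in sham, 33.93, 31.17 and 35.44 CPM on 0.2 kPa and 31.07, 33.36 and 23.97 CPM on 32 kPa, and its region changed by -1.70 and -1.31. Lrr1, part of a ubiquitin ligase that acts on the replication machinery, rose by 7.42 ± 0.46 on 0.2 kPa, from 6 reads in sham to 1154. Cdk1, the kinase that drives mitosis, was at 0.652, 1.17 and 1.16 CPM in sham and at 198.8, 186.4 and 185.1 CPM on 0.2 kPa, a rise of 7.40 ± 0.20 (adjusted p = 3.12e-10), while its region changed by -2.39. Ccnb1, the cyclin partner of Cdk1, rose by 7.34 ± 0.15 with a region change of -2.60. Pclaf, a clamp-associated replication factor, rose by 7.28 ± 0.17 at -1.37. Of 31 cell cycle genes on the list, 28 had a lost promoter, and all 28 rose on both gels, with a median RNA change of 4.68 on 0.2 kPa, a median ATAC change of -2.84 and a median CpG ratio of 0.93. The replication helicase genes Mcm2 and Mcm5 rose by 4.07 and 4.48 at promoters that changed by -3.05 and -3.03. The 3 listed genes without a lost promoter rose as well.

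Immediate-early genes, which encode transcription factors and regulators switched on within minutes of a stimulus and whose RNA rises when tissue is dissociated, had the deepest median ATAC change of the 19 lists with a gene at a lost promoter, -3.72 on 0.2 kPa and -3.32 on 32 kPa. Of 20 such genes, 18 were lower and 1 higher on 0.2 kPa and 16 and 2 on 32 kPa; their promoters were CpG-rich, with a median ratio of 0.80. Fos was at 2605, 2988 and 2627 CPM in sham and at 3.69, 4.33 and 4.88 CPM on 0.2 kPa. Egr1 was at 4720, 4580 and 4268 CPM in sham and at 88.74, 97.57 and 107.7 CPM on 0.2 kPa, and its promoter region had the highest sham concentration of all members, 12.82, against 8.56 on 0.2 kPa. Sham cells were sorted after a digestion of 45 minutes, and the part of that step in these values was not tested.

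Interferon response genes fell: 17 of 17 at lost promoters were lower on both gels, with a median RNA change of -2.97 on 0.2 kPa. Irf1, a transcription factor of the response, was at 187.9, 134.6 and 159.7 CPM in sham and 8.28, 9.05 and 7.65 CPM on 0.2 kPa, with a region change of -3.82. Ifit2, an antiviral gene induced by interferon, had an RNA change of -0.89 at a region change of -1.96. The 7 listed genes without a lost promoter were lower as well, and the leukocyte marker sum given above fell with them; its part in the result was not tested.

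**Figure D5:**
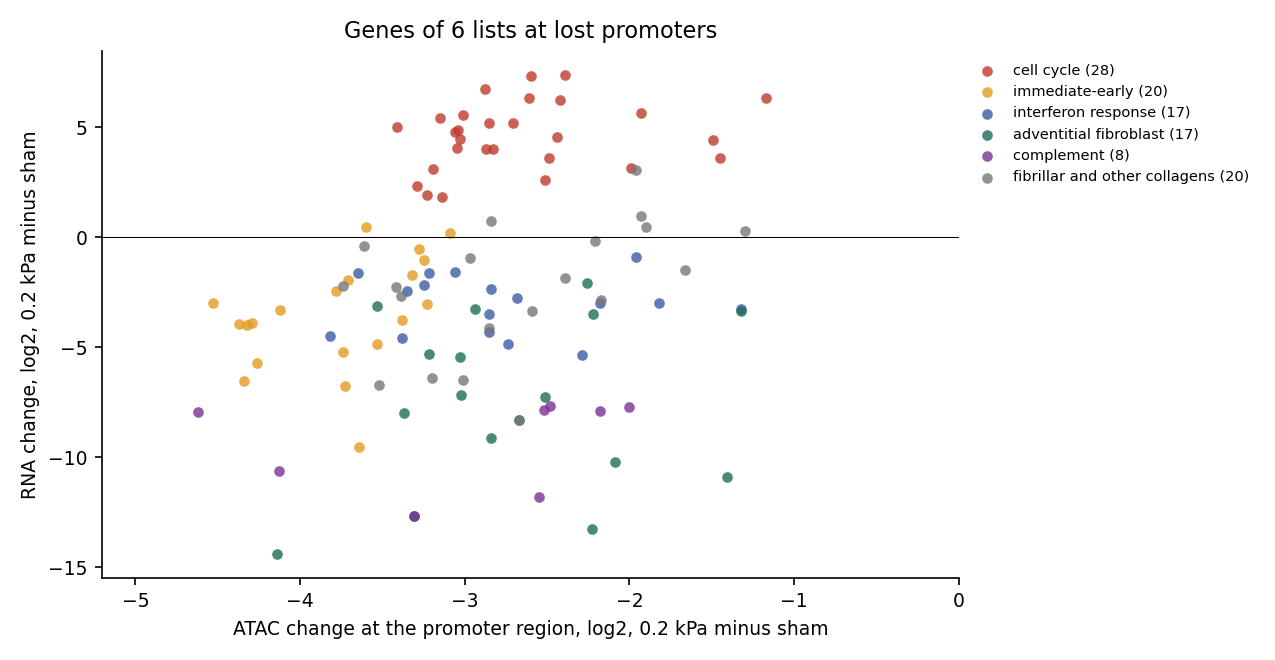
ATAC change at the promoter region (log2, 0.2 kPa minus sham, x axis) and RNA change (log2, y axis) of the genes of 6 lists at lost promoters, 1 point per gene and list; genes on more than 1 list appear more than once. All 28 cell cycle genes lie above 0 and all 17 interferon, 17 adventitial and 8 complement genes below it, and the ranges of ATAC change overlap.

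Fibroblast identity genes were mostly lower, where 40.05% of all genes tested at lost promoters were lower and 36.48% higher on 0.2 kPa. All 17 adventitial fibroblast genes at lost promoters were lower on both gels, with a median RNA change of -7.25 on 0.2 kPa and a median CpG ratio of 0.18. Of 14 alveolar fibroblast genes 11 were lower and 2 higher. Of 8 peribronchial genes 7 were lower, and of 8 pericyte genes 7 were lower and 1 higher. Listed genes without a lost promoter were mostly lower on 0.2 kPa too. These were 3 of 3 adventitial, 8 of 9 alveolar, 2 of 2 peribronchial and 4 of 5 pericyte genes. Among 10 smooth muscle genes, 6 were lower and 2 higher. The higher genes were Acta2 and Tagln, at 1.38 and 1.99 on 0.2 kPa and 1.67 and 2.33 on 32 kPa. The 12 smooth muscle markers summed to 4104 to 4249 CPM on 0.2 kPa and 4482 to 5126 CPM on 32 kPa. In sham the sums were 3656, 856.6 and 4188 CPM. Myh11, the smooth muscle myosin, was at 966.9, 101.1 and 1070 CPM in sham and 5.05, 4.48 and 3.58 CPM on 0.2 kPa. For Myh11, sham replicate 2 lay far below the other sham libraries and still above the gels. At promoters of lung mesenchyme transcription factors the RNA was split: 16 of 28 were lower and 6 higher on 0.2 kPa, with 3 higher without sham replicate 1 and 3 without sham replicate 3. Tcf21 and Tbx4, factors of lung mesenchyme identity, changed by -2.69 and -3.23, and Hoxa5, a factor of positional identity, by 0.57, with region changes of -2.48, -1.85 and -2.75. In the list of retinoid, steroid and nuclear receptor genes, 24 of 26 were lower and 1 higher, with Hlf, a clock-controlled factor, at -6.66 ± 0.41.

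Matrix genes went both ways. Of 20 genes for collagens and their modifying enzymes at lost promoters, 14 were lower and 4 higher on each gel. Col3a1, a fibrillar collagen, went from 19610, 18470 and 26110 CPM to 298.0, 298.2 and 283.7 CPM on 0.2 kPa, with a region change of -3.20. Col1a1 RNA changed by -2.22 at a region change of -3.74, and Lox, which cross-links collagen, by 3.07 at -1.96. Eln, which encodes elastin, had the third deepest promoter loss of all members, from 10.72 to 5.94, and its RNA went from 3408, 3429 and 4909 CPM to 69.29, 121.1 and 151.9 CPM on 0.2 kPa and 101.9, 105.3 and 40.03 CPM on 32 kPa. In the list of glycoproteins and elastic fibres, 18 of 22 were lower and 3 higher.

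Secreted signals and their inhibitors were divided as well. Of 14 chemokine and cytokine genes, 8 were lower and 5 higher on 0.2 kPa. No list was tested against the shares over all genes at lost promoters, 40.05% lower and 36.48% higher. Il11, a cytokine of the IL-6 family, was at 1.73, 1.62 and 2.34 CPM in sham, 280.7, 307.5 and 279.5 CPM on 0.2 kPa and 170.4, 159.3 and 162.4 CPM on 32 kPa, while the region 938 bases from its start changed by -1.94. Cxcl1, a neutrophil chemokine, changed by -7.19 ± 0.22 at a region change of -3.49. In the BMP and WNT list, 15 of 20 were lower and 4 higher: the inhibitory Smad genes Smad6 and Smad7 changed by 1.36 and 1.95 with region changes of -3.00 and -2.56, and Axin2, a WNT target, by -5.12 ± 0.26 with -2.75.

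The regions with the deepest losses lay at genes whose RNA fell, rose or was near 0. Rela, the p65 subunit of NF-kappaB, had the deepest region change, -4.93, in a region of 100 bases 713 bases from the start, and its RNA was at 84.46, 103.2 and 94.64 CPM in sham and 63.28, 72.56 and 82.66 CPM on 0.2 kPa. RNA fell by 0.57 ± 0.15 (adjusted p = 0.00604), and on 32 kPa the change of -0.24 ± 0.15 did not pass (adjusted p = 0.170). Eif3j2, for a subunit of a translation initiation factor, rose by 1.55 ± 0.13 at a region change of -4.92. Gm13277 and Gm13288, near-identical neighbouring genes whose reads may be split between them, had region changes of -4.77 and -4.70 on at most 13 reads of RNA in a group.

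Some abundant RNAs did not pass the limma test on either gel. Bgn, the matrix proteoglycan biglycan, was at 6825, 7259 and 6731 CPM in sham, 6339, 6449 and 6919 CPM on 0.2 kPa and 6869, 6683 and 6000 CPM on 32 kPa, so the groups overlapped, and its region changed by -1.88. Its RNA change on 0.2 kPa was -0.28 ± 0.16 (adjusted p = 0.143 in limma, 0.0159 in DESeq2). Lars2, the mitochondrial leucyl-tRNA synthetase, was at 2837, 3733 and 4017 CPM in sham and 3462, 2854 and 2827 CPM on 0.2 kPa, with a region change of -3.16 (RNA change -0.40 ± 0.18, adjusted p = 0.0683). The Lars2 call depends on the processing: the adjusted p was 0.0303 with values as deposited, 0.0437 in edgeR, 0.0255 in DESeq2 and 0.0210 without sham replicate 1. Flna, which cross-links actin filaments, was at 2393, 853.9 and 2811 CPM in sham, again lowest in replicate 2, and 2558, 2573 and 2528 CPM on 0.2 kPa. Cyr61, a matricellular target of YAP, had 1174, 1362 and 1194 CPM in sham and 1297, 1336 and 1409 CPM on 0.2 kPa at a region change of -3.16.

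Between the gels, the stiff gel had the higher ATAC signal wherever lost promoters were listed: 216 of the 14482 (1.49%) overlapped a region higher on 32 kPa than on 0.2 kPa and 0 a region lower on it. The other regions lost on both gels shared this direction, with 232 (0.895%) and 0. RNA showed no such difference in limma, with 0 of 11531 genes called in either direction (0.0% of all genes tested). At an unadjusted p under 0.05 in limma were 560 of these genes, and 1010 of all 18480 genes tested. edgeR called 1 and DESeq2 30 of these genes, where DESeq2 called 39 lower and 4 higher over all genes tested. Leaving out 32 kPa replicate 3 raised the limma count to 582, so the limma count depends on that library. Over all genes tested that fit called 509 lower and 315 higher.

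Injury in the lung touched few of these promoters. In all, 93 (0.642%) overlapped a region lost at day 14 after bleomycin, against 10.08% of the other regions lost on both gels, and 68 (0.470%) overlapped a region gained at day 14, against 1.66%. At day 56, 1 promoter region overlapped a lost region and 0 a gained region. The gel and injury lists come from different strains and separate samples. In RNA, 1000 of 11607 tested genes at lost promoters (8.62%) were lower and 1292 (11.13%) higher at day 14, beside 6.37% and 9.56% of all 21077 genes tested. At day 56, limma called 1 gene lower, Angpt4 (change -1.54 ± 0.19, adjusted p = 0.0185), and 0 higher, beside 0.00474% and 0.0% of all genes. At an unadjusted p under 0.05 in limma were 696 genes at lost promoters, and 1328 of all genes tested. DESeq2 called 38 genes at lost promoters, where it called 28 lower and 54 higher over all genes tested. Without 4 libraries with few detected genes (sham replicates 1 and 2 and day 56 replicates 2 and 3) the day 14 counts were 1910 lower and 1961 higher. Over all genes tested that fit called 2592 lower and 2952 higher. Without day 14 replicate 2 the counts at lost promoters were 662 and 854, and those over all genes tested 901 and 1322.

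Where a lost promoter also changed at day 14, RNA that passed the test mostly went the same way. Of 72 tested genes at promoters lost at day 14, 29 (40.28%) were lower and 3 (4.17%) higher in RNA. Of 58 at promoters gained at day 14, 14 (24.14%) were higher and 0 lower. Over all genes tested, 6.37% were lower and 9.56% higher. Most genes of both groups passed the test in neither direction. The 6 genes named next were chosen after their values were seen. Inmt was at 9151, 5704, 3562 and 5820 CPM in sham, 479.5, 289.6, 498.3 and 444.6 CPM at day 14 and 4587, 6142, 4709 and 3404 CPM at day 56; all day 14 libraries lay below all others (change -3.73 ± 0.26, adjusted p = 1.61e-06), and day 56 overlapped sham. Its promoter region changed by -2.14 at day 14. Gsn, the actin-severing protein gelsolin, with a region change of -1.36, averaged 79480 ± 10380 CPM in sham and 12070 ± 1437 at day 14 (SD, n = 4). Tnc, Runx1 and Postn lay at promoters gained at day 14, with region changes of 1.35, 3.34 and 1.35. They were among the 14 such genes with higher RNA and, as chosen examples, do not stand for all 58. Tnc, the injury-associated matrix protein tenascin-C, was at 14.09, 53.30, 49.06 and 27.81 CPM in sham and 1322, 1790, 1654 and 1916 CPM at day 14 (change 5.74 ± 0.56, adjusted p = 1.73e-05). Runx1, a transcription factor, went from 18.85 ± 7.76 to 81.61 ± 20.95 CPM (adjusted p = 0.00115). Postn, the matricellular protein periostin, averaged 420.9 ± 256.9 CPM in sham and 1426 ± 110 at day 14. Col6a3, a collagen VI chain, went against its promoter: the region, 933 bases from the start, changed by -1.14 while its RNA went from 528.5 ± 111.1 to 1209 ± 230.2 CPM (change 1.24 ± 0.28, adjusted p = 0.00817).

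The gene lists were also read at day 14, when 8.62% of all genes tested at lost promoters were lower and 11.13% higher. Among genes at lost promoters, 22 of 28 cell cycle genes were higher at day 14, and 13 of 20 collagen genes were higher and 0 lower, where 14 of the 20 were lower on the gels. Of the 20 immediate-early genes 12 were lower at day 14, of the 14 alveolar fibroblast genes 7, and of the 17 adventitial fibroblast genes 7, with 2 higher. Markers of other cells moved at the same time. The 22 leukocyte markers, none at 0 in any group, summed to 339.1 to 517.8 CPM in sham, 799.2 to 2621 CPM at day 14 and 260.2 to 863.3 CPM at day 56, and 13 of the 22 were higher at day 14 and 0 lower. At lost promoters 7 of 8 were higher, among them Tyrobp, a signalling adaptor of myeloid cells, from 4.68 ± 2.29 to 25.42 ± 10.72 CPM. The 18 epithelial markers summed to 144.8 to 355.2 CPM in sham and 35.66 to 91.19 CPM at day 14. The part of these other cells in the day 14 changes of RNA and of promoter regions, gained or lost, was not tested. These 2 experiments were not tested against each other.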

How the data were processed

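Per the submitters' processing notes, reads were handled with HISAT2, Bowtie2, SAMtools, Picard, featureCounts (Subread), DESeq2, MACS2, bedtools, DiffBind and HOMER on mm10, with versions and settings that those notes do not give here. The deposited ATAC lists hold log2 concentrations per group and a log2 fold for each region, with the p-value and FDR of the authors' comparison, and no values per sample. The lists were limited to an FDR of at most 0.05 and, except the 32 kPa list, a fold of at least 1 log2 unit, as checked on the files. Folds are printed here as gel minus sham. The deposited RNA tables hold normalised gene signal; dividing by each library's step gave whole reads for 100% of values within 0.05 reads. Entries without a gene symbol (855 in CD1, 2.13% to 4.77% of reads) were left out.

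RNA was tested with limma (3.58.1, trend) on log2(value + 1) after median-of-ratios rescaling, for genes with a mean of at least 1, in a single fit per strain, with Benjamini-Hochberg adjustment and a two-sided threshold of 0.05; fold changes on this scale understate those of low genes. edgeR (4.0.16) on the recovered reads called 7056 genes lower and 5750 higher on 0.2 kPa. The script was tested on simulated data. Start sites came from RefSeq NM and NR transcripts, and genes were matched by gene number or symbol. Regions, members and gene lists were chosen with earlier results of these data known. Named genes were the 10 largest falls and 5 largest rises shared by both gels without overlap with sham (at least 5 CPM in the higher group), the 5 deepest ATAC changes, up to 4 genes per list with the largest RNA change, the 3 genes with most regions and the 5 genes with the highest sham CPM called on neither gel; others named stand on the lists, and single genes these rules name may not be reported here. A sum of a list's markers covers all its members in the table. Same-numbered samples did not deviate together, so replicates were not paired.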

Additional observations from a re-analysis of the deposited data

Results flagged for a closer look

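In 3 groups of the C57BL/6 libraries, a library stood apart from the other 3 of its group, with a gap to its nearest neighbour above the critical value for 4 samples; 18 groups (6 genes in 3 groups each) were examined, and chance alone flags about 1 in 20. Gsn at day 14 was at 9928 CPM in replicate 2 and at 12550 to 13000 CPM in the others, all far below sham. Col6a3 at day 14 was at 865.1 CPM in replicate 1 and at 1309 to 1352 CPM in the others. Postn at day 56 was at 505.6 CPM in replicate 4 and at 245.2 to 266.7 CPM in the others.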

How the results depend on the processing

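The 4 counts of genes at lost promoters with lower or higher RNA on the gels stayed within 1.5 times their values under every alternative run. Leaving out a library gave 4248 to 4584 lower and 3929 to 4208 higher on 0.2 kPa, and 4423 to 4828 and 4073 to 4369 on 32 kPa. The median RNA change moved by more than the spread between libraries. On 0.2 kPa it was -0.10 with no filter beyond a nonzero value, with DESeq2 and with both folds at least 1 log2 unit, -0.07 with a mean of at least 10, with start sites within 500 bases and with messenger RNA starts alone, -0.06 with every gene within 1000 bases, -0.11 with edgeR, -0.18 with values as deposited and 0.10 with edgeR scaled by total reads alone, and -0.10 to -0.09 without single libraries. On 32 kPa it was -0.06 with a mean of at least 10 and with every gene within 1000 bases, -0.07 with start sites within 500 bases and with messenger RNA starts alone, -0.19 with values as deposited, 0.03 with total reads alone and -0.12 to -0.07 without single libraries. Scaling by total reads alone, messenger RNA starts and the fit without 4 libraries were chosen after seeing the data.

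Genes called between the gels numbered 1 with a pseudocount of 5 and with edgeR, 2 with a mean of at least 10 and with values as deposited, 30 with DESeq2 and 0 to 582 without single libraries, the highest without 32 kPa replicate 3. At day 14, single libraries left out gave 662 to 1053 lower and 854 to 1286 higher, lowest without day 14 replicate 2, and the fit without 4 libraries 1910 and 1961. At day 56 the count was 6 with a pseudocount of 5, 4 with values as deposited, 38 with DESeq2, 7 without the 4 libraries, 0 with start sites within 500 bases and 0 to 3 without single libraries. The cause of these shifts was not tested. With the replicate number as a block, limma called 0 genes at day 56, the counts on the gels were 4511 lower and 4110 higher on 0.2 kPa and 4651 and 4200 on 32 kPa, and those at day 14 were 823 and 1092. Among the genes named, Aldh1a2 on 0.2 kPa lost its call under the block (adjusted p = 0.0587) and no other call on the gels changed; the correlation of deviations between same-numbered samples ran from -0.160 to 0.115. Regions, their overlap with the day 14 list and the CpG ratio kept their values within 1.5 times.

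Of 2694 values for named genes under the alternatives, 2669 kept their direction and side of the threshold, 20 lost the call, 5 gained it and 0 reversed; the 7 results concerned were those of Aldh1a2, Bgn, Bnc1, Cldn15 and Lars2. No median of the 19 lists changed sign in 18 settings. ATAC concentrations were deposited per group, so alternatives on single ATAC libraries were not run.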
